A study of Rattus norvegicus with 4 samples.

Results

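Peroxisome proliferator-activated receptor alpha (PPAR-alpha, encoded by Ppara) and the enzymes of fatty acid oxidation were followed in the livers of 4 groups of rats. The set was a list of 33 gene symbols, and its probes were those whose symbol, Entrez identifier or RefSeq accession named a listed gene. This gave 28 probes among 20174 on the array: 19 by symbol, 6 by Entrez identifier, 2 by RefSeq accession (Hadha and Acot2) and 1 whose own names disagreed, its accession being that of Acot4 and its protein symbol that of Acot3, called Acot3/4 here. Acaa1b, Cyp4a2, Cyp4a3 and Cyp4a8 were not analysed here. The 28 probes comprised 14 for mitochondrial enzymes, 7 for peroxisomal proteins, 5 for microsomal or cytosolic proteins and 2 for regulators.

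All rats were Sprague-Dawley animals injected intraperitoneally with diethylnitrosamine, a liver carcinogen, at 10 weeks of age. All then received for 12 weeks a diet lacking methionine and choline, which causes steatohepatitis, a fatty and inflamed liver. The groups were transgenic rats given luteolin, a plant flavonoid, in that diet; transgenic rats given the diet alone; wild-type rats given luteolin in the diet; and wild-type rats given the diet alone. The transgene encoded a dominant negative connexin 32, a protein of the gap junctions that join hepatocytes. No group was free of the carcinogen and the diet. Each group had 1 array, so no ratio between arrays had a replicate check. The sources used here do not give the transgene's promoter, the sex of the rats, the luteolin dose or the number of rats behind an array.

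PPAR-alpha is a nuclear receptor of hepatocytes that binds fatty acids and their derivatives and, paired with the retinoid X receptor, raises transcription of genes for fatty acid uptake, activation and oxidation. Mitochondria shorten medium- and long-chain acyl-CoA by repeated cycles of dehydrogenation, hydration, dehydrogenation and thiolysis, and peroxisomes run a similar cycle on very long-chain and dicarboxylic acids. In rodents the peroxisomal enzymes, the Cyp4a omega-hydroxylases and the acyl-CoA thioesterases are among the strongest responders to drugs that activate the receptor.

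All 28 probes lay above background on all 4 arrays, and 26 were among the 3541 brightest of 14161 genes above background on every array. Values below are log2 intensities after background correction and quantile normalization, and a ratio is a difference of log2 values between a pair of arrays. Median centring and the authors' own scaling placed bright genes differently from quantile normalization. Under median centring the median log2 ratio of the 3541 brightest genes was -0.26 for luteolin in transgenic rats, 0.26 for luteolin in wild-type rats, 0.20 for transgenic against wild type without luteolin and -0.33 with luteolin, against values between -0.01 and 0.01 after quantile normalization. Group medians are therefore also given relative to those bright genes. No member's ratio above 0.24 in size changed sign under any of 9 alternative settings, whereas smaller ratios could. Bright genes also drifted smoothly with their row in the deposited tables, with medians per 1000 rows between -0.21 and 0.20 over the 4 comparisons. Gjb1, the gene of connexin 32, read 10.43 and 10.07 on the transgenic arrays with and without luteolin, and 10.40 on each wild-type array.

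After quantile normalization most of the oxidation genes were dimmest on the array of transgenic rats without luteolin and brightest on that of wild-type rats given luteolin. Of 28 genes, 20 had their lowest value on the transgenic array without luteolin, against 10 under median centring and 14 on the authors' scaling, and 21 under each once values were taken relative to bright genes. The wild-type luteolin array held the highest value of 19 of 28 genes, against 27 under median centring and 28 on the authors' scaling, and 21 and 19 relative to bright genes. All 7 peroxisomal genes were lowest on the transgenic array without luteolin, where median centring and the authors' scaling each gave 4, and 6 of them were highest on the wild-type luteolin array. The 5 microsomal or cytosolic genes were all highest on the wild-type luteolin array under the 3 scalings. Among the 14 mitochondrial genes the pattern was looser, with 9 lowest on the transgenic array without luteolin and 7 highest on the wild-type luteolin array. The same counts were not made over all genes, so whether they are particular to the members is not known.

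**Figure D1:**
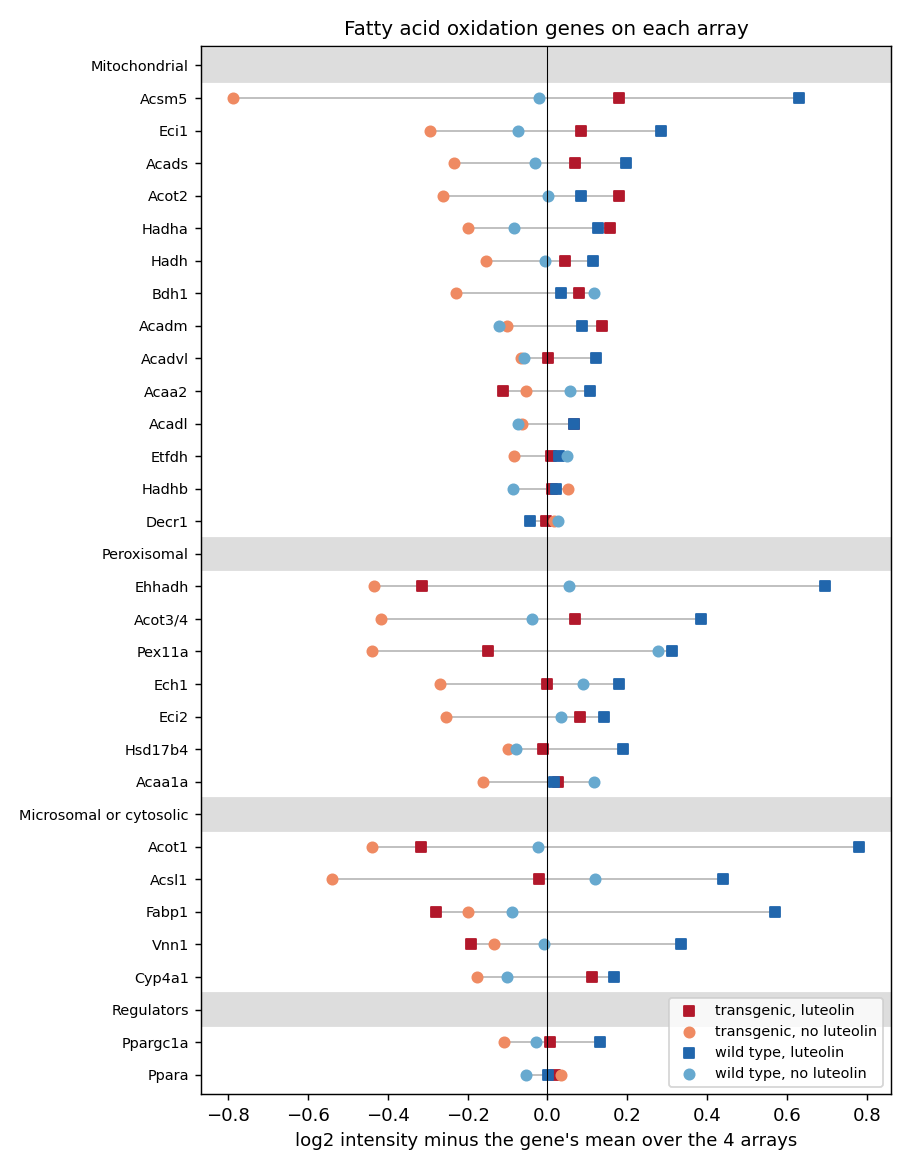
Log2 intensity of each of the 28 genes on each of the 4 arrays (x axis), as the difference from that gene's mean over the arrays, with genes grouped by compartment down the page; each point is 1 array and the grey lines join the lowest and highest. Acsm5, Ehhadh, Acot1, Acsl1 and Fabp1 spread most widely, with the wild-type luteolin array at the right end, while Ppara, Decr1, Hadhb, Etfdh and Acadl spread least.

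Hepatocyte markers had a like summed level on all arrays, which the normalization largely fixed, while sums of markers of other liver cells were not level. The summed intensity of 10 hepatocyte markers, mostly that of the brightest such as Alb, Ttr and Hp, lay between 168700 and 174000. Quantile normalization gives the very brightest probes nearly the same values on every array. This sum could therefore hardly differ, and it does not measure hepatocyte content. Single hepatocyte genes did differ: the luteolin ratio of Tat (tyrosine aminotransferase) was -0.78 in transgenic and 0.01 in wild-type rats, that of G6pc1 (glucose-6-phosphatase) -0.04 and 0.97, and that of Apoh (apolipoprotein H) 0.40 and -0.14. The sum of 9 stellate cell and myofibroblast markers was 1924 and 4752 in transgenic rats with and without luteolin, and 2189 and 2246 in wild-type rats with and without luteolin. The sum of 8 macrophage markers was 6140 and 11940 in transgenic rats with and without luteolin, and 5067 and 6620 in wild-type rats with and without luteolin. The brightest of these 8 were Lyz2, Gpnmb and Lgals3, at 11.74, 11.71 and 11.72 in transgenic rats without luteolin. Cd163 and Clec4f went the other way from the sum, at transgenic over wild-type ratios of -0.08 and -0.11 without luteolin. Both sums were highest on the transgenic array without luteolin, where 20 of 28 oxidation genes were lowest, and the part of these cells in that difference was not tested. The sum of 7 cholangiocyte markers ran from 818 to 1385 and was also highest there, and that of 6 erythroid markers ran from 1856 to 3804 and was lowest there. Fewer hepatocytes and less RNA per hepatocyte cannot be told apart in whole liver.

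After quantile normalization the probe of the receptor itself showed almost no difference between arrays. Ppara had a log2 intensity of 6.47 and 6.49 in transgenic rats with and without luteolin, and 6.46 and 6.40 in wild-type rats with and without luteolin. Its 4 ratios ran from -0.02 to 0.09. On the authors' scaling the luteolin ratio of Ppara was -0.31 in transgenic and 0.30 in wild-type rats. The medians of all genes were -0.26 and 0.19 there. Its transgenic over wild-type ratio on that scaling was -0.33 with luteolin and 0.29 without, beside medians of all genes of -0.42 and 0.02. Ppargc1a, a coactivator that promotes mitochondrial biogenesis and oxidation, read 6.42 and 6.30 in transgenic rats with and without luteolin, and 6.54 and 6.38 in wild-type rats with and without luteolin. Both probes were dim, 2 members outside the 3541 brightest genes, and the offset of 50 used in background correction pulls ratios of dim probes toward 0.

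After quantile normalization none of 10 enzymes of the mitochondrial cycle reached 1.5-fold in any of the 4 comparisons. Acadl, the long-chain acyl-CoA dehydrogenase, read 12.37 and 12.24 in transgenic rats with and without luteolin, and 12.37 and 12.23 in wild-type rats with and without luteolin. Acadm, the medium-chain dehydrogenase, read 11.44 and 11.20 in transgenic rats with and without luteolin, and 11.39 and 11.18 in wild-type rats with and without luteolin. For both dehydrogenases the arrays split by luteolin and not by genotype, which rested on the scaling. Median centring turned the luteolin ratio in transgenic rats to -0.14 for Acadl and -0.02 for Acadm, and on the authors' scaling the transgenic over wild-type ratio with luteolin was -0.45 for Acadl and -0.49 for Acadm. Acaa2, the mitochondrial thiolase, read 12.31 and 12.37 in transgenic rats with and without luteolin, and 12.53 and 12.48 in wild-type rats with and without luteolin, so it was lower on both transgenic arrays, at log2 ratios of -0.22 with luteolin and -0.11 without, the last being 0.09 under median centring. Eci1, an isomerase that lets unsaturated fatty acids enter the cycle, read 11.21 and 10.83 in transgenic rats with and without luteolin, and 11.41 and 11.05 in wild-type rats with and without luteolin. Its luteolin ratio was thus 0.37 in transgenic and 0.36 in wild-type rats after quantile normalization. These ratios were 0.18 and 0.61 on the authors' scaling, and 0.24 and 0.55 with the median of the nearest bright genes by row taken off.

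Among the other enzymes, Acads (short-chain dehydrogenase) had luteolin ratios of 0.30 in transgenic and 0.23 in wild-type rats, and Hadha, the alpha subunit of the trifunctional protein, 0.36 and 0.21. Hadhb, the beta subunit of the same complex, had ratios of -0.04 in transgenic and 0.11 in wild-type rats. For Acadvl (very long-chain dehydrogenase), Hadh (short-chain hydroxyacyl-CoA dehydrogenase), Decr1 (dienoyl-CoA reductase) and Etfdh, which passes electrons from the dehydrogenases to ubiquinone, no ratio lay outside -0.14 to 0.19 after quantile normalization. On the authors' scaling their transgenic over wild-type ratios with luteolin were -0.64, -0.59, -0.47 and -0.51 in that order. Bdh1, which makes the ketone body 3-hydroxybutyrate, had a transgenic over wild-type ratio of 0.04 with luteolin and -0.35 without it. On the authors' scaling these Bdh1 ratios were -0.42 and -0.41. Acot2, a mitochondrial thioesterase, was 0.44 higher with luteolin in transgenic rats and 0.08 higher in wild-type rats.

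Acsm5 differed most among the mitochondrial genes. It belongs to the medium-chain acyl-CoA synthetase family, whose members activate medium-chain fatty acids and some drug carboxylates in the mitochondrial matrix. Acsm5 read 10.80 and 9.83 in transgenic rats with and without luteolin, and 11.25 and 10.60 in wild-type rats with and without luteolin. It was lowest on the transgenic array without luteolin, highest on the wild-type luteolin array and at like levels on the other arrays. Luteolin went with 1.96-fold higher Acsm5 in transgenic rats and 1.56-fold higher in wild-type rats, and both ratios stayed past 1.5-fold under all 9 alternative settings. Transgenic rats were 1.70-fold lower than wild-type rats without luteolin and 1.36-fold lower with it.

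Among the peroxisomal genes Ehhadh and Pex11a reached 1.5-fold in a comparison. Ehhadh encodes the bifunctional enzyme that hydrates and then dehydrogenates acyl-CoA in peroxisomes, and is a classical PPAR-alpha target in rodents. It read 10.24 and 10.12 in transgenic rats with and without luteolin, and 11.25 and 10.61 in wild-type rats with and without luteolin. Both transgenic arrays lay below both wild-type arrays, at a log2 ratio of -1.0 with luteolin, which is a 2.0-fold lower level, and of -0.49 without it. The luteolin ratio was 0.13 in transgenic and 0.64 in wild-type rats. Pex11a, a membrane protein that drives peroxisome division, read 8.06 and 7.77 in transgenic rats with and without luteolin, and 8.52 and 8.49 in wild-type rats with and without luteolin. Its difference ran with genotype on either diet, at log2 ratios of -0.46 with luteolin and -0.72 without it.

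After quantile normalization the remaining peroxisomal enzymes were lowest in transgenic rats without luteolin, with Hsd17b4 at a log2 ratio of only -0.02 to wild type. Acot3/4, from a cluster of closely similar acyl-CoA thioesterase genes whose transcripts a probe may not separate, read 9.98 and 9.49 in transgenic rats with and without luteolin, and 10.29 and 9.87 in wild-type rats with and without luteolin. Ech1, a dienoyl-CoA isomerase found in both organelles, read 11.22 and 10.95 in transgenic rats with and without luteolin, and 11.40 and 11.31 in wild-type rats with and without luteolin. Acaa1a, the peroxisomal thiolase, read 11.62 and 11.43 in transgenic rats with and without luteolin, and 11.61 and 11.71 in wild-type rats with and without luteolin. In these values each of Acot3/4, Ech1 and Acaa1a was lowest on the array of transgenic rats without luteolin. Ech1 was lower on both transgenic arrays than on both wild-type arrays. Acot3/4 had luteolin ratios of 0.49 in transgenic and 0.42 in wild-type rats. Its transgenic over wild-type ratios were -0.31 with luteolin and -0.38 without. On the authors' scaling both transgenic arrays lay below both wild-type arrays for Acaa1a, at log2 ratios of -0.49 with luteolin and -0.32 without. Hsd17b4, the second peroxisomal bifunctional enzyme, read 11.49 and 11.40 in transgenic rats with and without luteolin, and 11.69 and 11.42 in wild-type rats with and without luteolin. On the authors' scaling Hsd17b4 was lowest in transgenic rats given luteolin, at a luteolin ratio of -0.15 in that genotype. Eci2, a peroxisomal enoyl-CoA isomerase, was 0.34 higher with luteolin in transgenic rats and 0.11 higher in wild-type rats.

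The thioesterase Acot1, the binding protein Fabp1 and the pantetheinase Vnn1 were each brightest on the wild-type luteolin array. Acot1, which hydrolyses cytosolic acyl-CoA to free fatty acid, read 9.11 and 8.99 in transgenic rats with and without luteolin, and 10.21 and 9.41 in wild-type rats with and without luteolin. It was 2.15-fold lower in transgenic than in wild-type rats given luteolin, and its luteolin ratio was 0.12 in transgenic rats and 0.81 in wild-type rats. Fabp1, the abundant carrier of fatty acids in hepatocyte cytosol, read 13.62 and 13.70 in transgenic rats with and without luteolin, and 14.47 and 13.81 in wild-type rats with and without luteolin. It was the 1 member of 28 that met the rule for standing apart on a single array, lying at least 0.5 from the median of the other 3 arrays, which lay within 0.4 of each other. Vnn1, which releases cysteamine and is a PPAR-alpha target in mouse liver, read 9.61 and 9.67 in transgenic rats with and without luteolin, and 10.14 and 9.80 in wild-type rats with and without luteolin.

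Acsl1 and Cyp4a1 were also brightest there, and had luteolin ratios above 0 in both genotypes after quantile normalization. Acsl1, which activates long-chain fatty acids to acyl-CoA at the outer mitochondrial membrane and the endoplasmic reticulum, read 11.40 and 10.88 in transgenic rats with and without luteolin, and 11.86 and 11.54 in wild-type rats with and without luteolin. It was higher with luteolin in both genotypes and lower in transgenic rats on both diets. The probe assigned to Cyp4a1, a microsomal omega-hydroxylase, read 8.62 and 8.34 in transgenic rats with and without luteolin, and 8.68 and 8.41 in wild-type rats with and without luteolin. Its arrays thus split by luteolin after quantile normalization. On the authors' scaling they did not, with luteolin ratios of 0.07 in transgenic and 0.52 in wild-type rats. The probe had no RefSeq accession, and whether it separates Cyp4a1 from related Cyp4a genes was not tested.

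The start regions of the 4 genes with the largest ratios are printed because these genes carry most of the 1.5-fold differences. All 4 were higher with luteolin in wild-type rats and lower in transgenic than in wild-type rats given luteolin. Each sequence is the 250 bases before the RefSeq gene start on the GRCr8 build, plus strand. Capitals mark letters matching AGGTCA, the hexamer bound by nuclear receptors, or a direct repeat of it with 1 base between (AGGNCANAGGNCA, the form bound by PPAR-alpha with its partner), on either strand.
Acot1 (chr6:109367024-109367273): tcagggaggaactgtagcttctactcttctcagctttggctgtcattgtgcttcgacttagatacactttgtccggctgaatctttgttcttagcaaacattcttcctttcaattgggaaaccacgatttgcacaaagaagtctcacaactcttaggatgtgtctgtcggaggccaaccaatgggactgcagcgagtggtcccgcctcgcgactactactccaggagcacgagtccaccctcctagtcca
Ehhadh (chr11:92746159-92746408): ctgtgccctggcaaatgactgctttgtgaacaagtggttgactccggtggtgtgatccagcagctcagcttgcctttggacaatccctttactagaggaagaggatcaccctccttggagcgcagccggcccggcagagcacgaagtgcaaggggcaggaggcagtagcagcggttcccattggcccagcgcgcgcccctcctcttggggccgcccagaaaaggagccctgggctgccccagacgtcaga
Fabp1 (chr4:104749090-104749339): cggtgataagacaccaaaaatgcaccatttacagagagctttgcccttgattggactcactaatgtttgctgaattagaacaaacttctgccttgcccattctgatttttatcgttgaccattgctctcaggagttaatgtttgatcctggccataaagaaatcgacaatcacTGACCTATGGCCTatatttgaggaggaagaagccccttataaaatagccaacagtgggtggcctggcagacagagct
Acsm5 (chr1:183302259-183302508): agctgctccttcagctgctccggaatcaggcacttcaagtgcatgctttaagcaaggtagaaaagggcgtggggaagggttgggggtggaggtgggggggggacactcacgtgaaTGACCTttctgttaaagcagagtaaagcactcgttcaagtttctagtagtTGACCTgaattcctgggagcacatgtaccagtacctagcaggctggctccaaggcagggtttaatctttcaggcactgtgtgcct

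Fabp1 held the direct repeat from 77 to 65 bases before its start, as TGACCTATGGCCT on the strand shown. Over the same 250 bases, 123 of 33469 RefSeq promoters (0.368%) had such a match, and Fabp1 was the only one among the 21 members with a promoter in the table. The single hexamer, which the Fabp1 repeat contains, occurred in 14.1% of all promoters and in 5 of 21 members' (Acadvl, Acsm5, Eci1, Fabp1 and Hsd17b4), with 2 matches in Acsm5. Acot1 and Ehhadh had neither in this window. A match is a description of letters, and elements farther from the start were not searched.

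Luteolin in transgenic rats went with a modestly higher level of most members. The log2 ratio was above 0 for 22 of 28 genes after quantile normalization, against 54.4% of all genes. Its median was 0.19, but 0.01 on the authors' scaling and -0.04 under median centring, where only 13 of 28 lay above 0. Relative to the brightest genes the median was 0.19, 0.25 and 0.21 under those settings in the same order. The median was 0.21 for mitochondrial and 0.27 for peroxisomal genes, and 0.12 for microsomal or cytosolic genes, against -0.05, 0.0021 and -0.14 under median centring and 0.0097, 0.0663 and -0.10 on the authors' scaling. Only Acsm5 was at 1.5-fold or more higher, as were 0.487% of all 14364 genes compared and 1.47% of the brightest 3541, and no member was 1.5-fold lower, as 1.02% of all genes were. Acsl1 (0.52), Acot3/4 (0.49) and Acot2 (0.44) followed.

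Luteolin in wild-type rats went with higher levels of 24 of 28 members, against 50.3% of all genes, at a median of 0.17 for the members. This median was 0.44 under median centring and on the authors' scaling, and 0.18 and 0.24 relative to the brightest genes. Acot1, Fabp1, Acsm5 and Ehhadh were at 1.5-fold or more higher, 4 of 28 members, against 0.297% of all 14834 genes compared and 0.988% of the brightest 3541, and no member was 1.5-fold lower, as 0.378% of all genes were. The microsomal or cytosolic genes had the highest median, 0.34, against 0.13 for mitochondrial and 0.11 for peroxisomal genes. When the median of the nearest bright genes by row was taken off each ratio, a setting added after the data were seen, Acot1 (0.67) and Acsm5 (0.67) stayed past 1.5-fold, and Fabp1 (0.52) and Ehhadh (0.51) came below it.

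Of the 28 members, 19 had a luteolin ratio above 0 in both genotypes, as did 29.9% of all genes. The size of the ratio differed by genotype for several members, and with 1 array a group this difference was not tested. Fabp1, Acot1, Ehhadh and Vnn1 had lower luteolin ratios in transgenic than in wild-type rats, with differences between the ratios of -0.74, -0.68, -0.51 and -0.40. These 4 probes lay within the first 4000 rows of the deposited tables, where the median luteolin ratio of bright genes per 1000 rows was between -0.11 and 0.05 in transgenic rats and between 0.08 and 0.15 in wild-type rats. With the local median taken off, these differences were -0.59 for Fabp1, -0.59 for Acot1, -0.31 for Ehhadh and -0.18 for Vnn1. After quantile normalization Bdh1 and Acot2 had the opposite order, with luteolin ratios higher in transgenic than in wild-type rats by 0.39 and 0.36. With the local median taken off these differences were 0.10 and 0.35. This order rested on the scaling. On the authors' scaling the luteolin ratios in transgenic and wild-type rats were 0.12 and 0.13 for Bdh1, and 0.25 and 0.31 for Acot2.

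**Figure D2:**
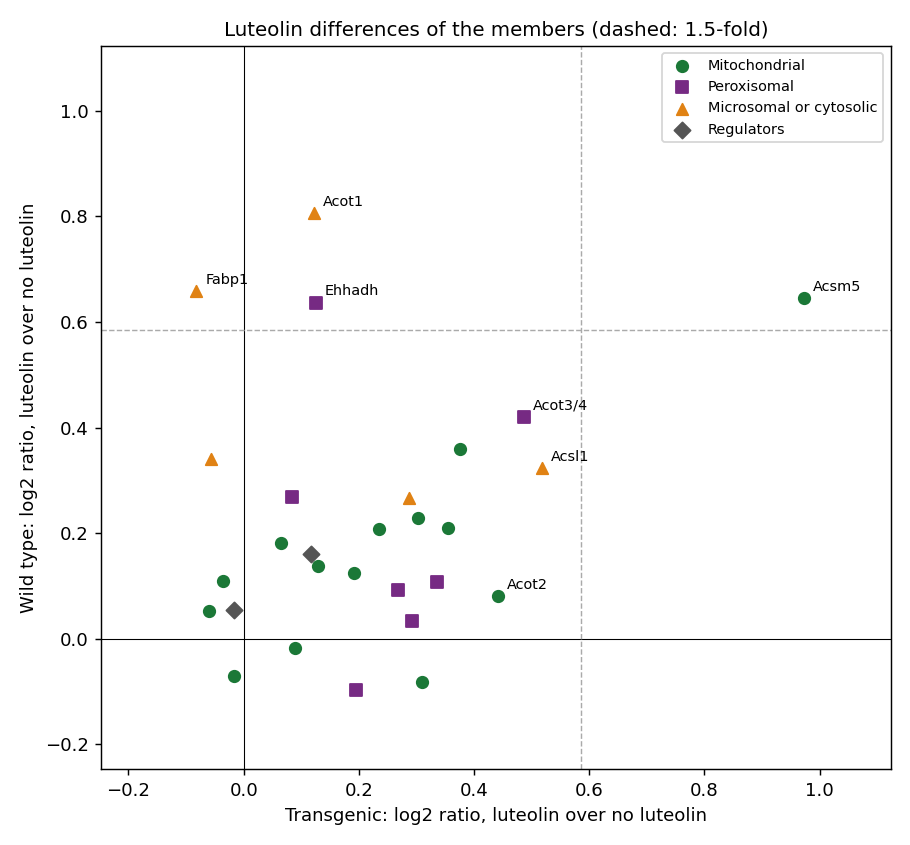
Log2 ratio of luteolin over no luteolin for each of the 28 genes in transgenic rats (x axis) and wild-type rats (y axis), after quantile normalization; each point is 1 gene on 1 pair of arrays per axis, and dashed lines mark 1.5-fold. Acsm5 lies past 1.5-fold on both axes, and Acot1, Fabp1 and Ehhadh on the wild-type axis alone; median centring moves bright genes by -0.26 on the x axis and 0.26 on the y axis.

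**Figure D3:**
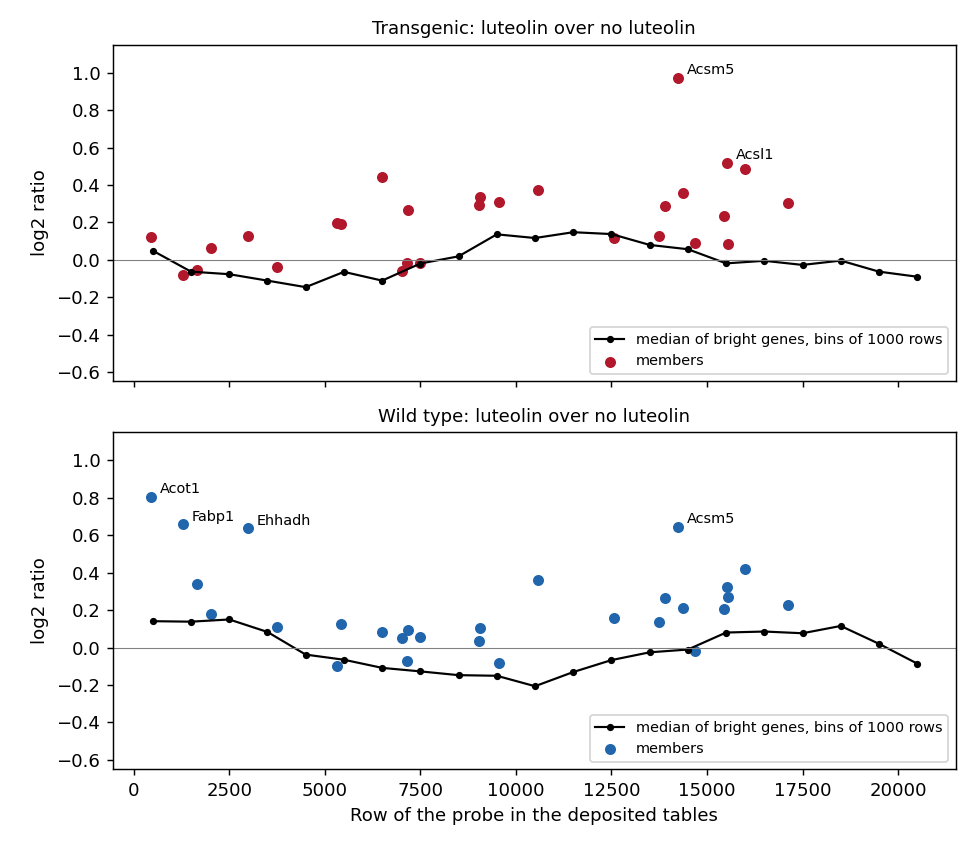
Log2 ratio of luteolin over no luteolin (y axis) against the row of each probe in the deposited tables (x axis), for transgenic rats above and wild-type rats below; coloured points are the 28 genes and the black line is the median of bright genes in bins of 1000 rows. The black line runs between -0.15 and 0.15 in transgenic rats and between -0.21 and 0.15 in wild-type rats, and Acot1, Fabp1 and Ehhadh sit in its high stretch in wild-type rats.

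Without luteolin, transgenic rats had lower levels than wild-type rats for 24 of 28 members, against 52.9% of all genes. The median log2 ratio of the members was -0.14, which was -0.22 on the authors' scaling but 0.03 under median centring. Relative to the brightest genes the median lay between -0.19 and -0.13 under the main and all 9 alternative settings. Acsm5, Pex11a and Acsl1 were at 1.5-fold or more lower, 3 of 28, against 0.386% of all 14759 genes compared and 1.24% of the brightest 3541, and no member was 1.5-fold higher, as 0.684% of all genes were. Under median centring none of the 3 reached 1.5-fold, at -0.58 for Acsm5, -0.52 for Pex11a and -0.42 for Acsl1. All 7 peroxisomal genes were lower (Hsd17b4, at -0.02, was higher under median centring), with a median of -0.36, against -0.12 for mitochondrial genes and -0.13 for microsomal or cytosolic genes, and the last 2 medians were 0.07 and 0.04 under median centring.

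With luteolin in both genotypes, transgenic rats had lower levels than wild-type rats for 21 of 28 members, against 48.8% of all genes. The median of the members was -0.13, against -0.47 under median centring and -0.62 on the authors' scaling. Acot1, Ehhadh and Fabp1 were at 1.5-fold or more lower, 3 of 28, as were 0.444% of all 14420 genes compared and 1.36% of the brightest 3541, and all 3 kept this size under the 9 alternative settings. No member was 1.5-fold higher, as 0.43% of all genes were. Acot1 and Ehhadh were 2-fold or more lower, as were 0.0624% of all genes. The mitochondrial median was -0.02, the peroxisomal -0.20 and the microsomal or cytosolic -0.52. This comparison uses the wild-type luteolin array that also enters the luteolin comparison in wild-type rats, and the one without luteolin uses the transgenic array that also enters the luteolin comparison in transgenic rats. Their ratios are therefore not separate evidence. Of the 28 members 19 were lower in transgenic rats on both diets, as were 27.1% of all genes.

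**Figure D4:**
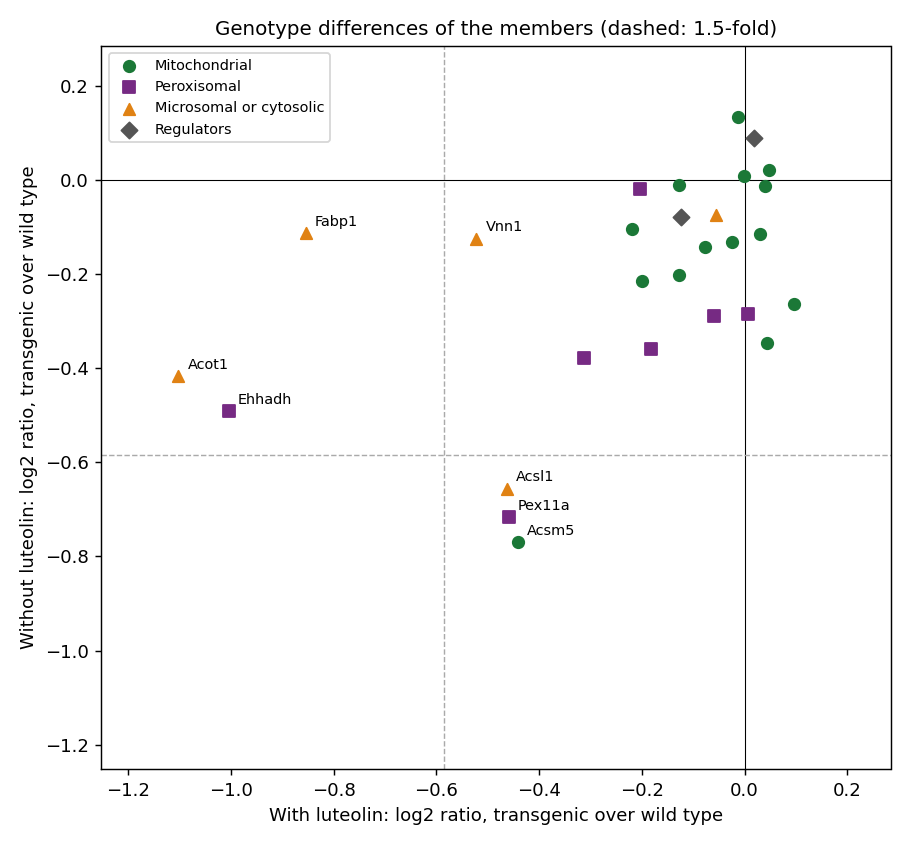
Log2 ratio of transgenic over wild type for each of the 28 genes with luteolin (x axis) and without it (y axis), after quantile normalization; each point is 1 gene and dashed lines mark 1.5-fold. Acot1, Ehhadh and Fabp1 lie at the left past 1.5-fold with luteolin, and Acsm5, Pex11a and Acsl1 at the bottom past 1.5-fold without it; median centring moves bright genes by -0.33 on the x axis and 0.20 on the y axis.

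The mean luteolin and genotype differences were tested over all 4 arrays with limma, in a model with both as additive terms and 1 residual degree of freedom per gene. With Benjamini-Hochberg adjustment over 14161 genes, none of them passed 0.05 for either effect, and the smallest adjusted p among members was 0.561 for luteolin and 0.685 for genotype. At an unadjusted p under 0.05, 9 of 28 members were higher with luteolin, as were 4.10% of all genes: Acadm, Acads, Acot3/4, Acsl1, Acsm5, Cyp4a1, Eci1, Hadh and Hadha. At the same level, 9 of 28 members were lower in transgenic rats, as were 3.62% of all genes: Acads, Acot1, Acot3/4, Acsl1, Acsm5, Ech1, Eci1, Ehhadh and Pex11a. Under median centring 1 of 28 members was higher with luteolin and 3 were lower in transgenic rats. Of all genes, 1.28% and 1.05% reached that level there in either direction. On the authors' intensity these members numbered 1 and 6, beside 4.89% and 4.37% of all genes in either direction. With an intensity trend in limma's variance prior, Acsm5 alone passed for luteolin (adjusted p = 0.0024, mean log2 difference 0.81), as did 0.565% of all genes in that direction. In the same fit Acot1, Acsm5, Ehhadh and Pex11a passed for genotype, with mean log2 differences of -0.76, -0.61, -0.75 and -0.59 and limma adjusted p of 0.014, 0.044, 0.013 and 0.029, as did 0.353% of all genes in that direction. These p-values rest on single arrays of different genotype or diet taken as replicates, whose spread may be technical.

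The wider PPAR-alpha and lipid oxidation program was read from lists of 113 further genes with a probe, 110 of them above background on all 4 arrays. Of these 110, 85 were higher with luteolin in transgenic rats and 61 in wild-type rats, at medians of 0.11 and 0.04, against 54.4% and 50.3% of all genes above 0. In transgenic against wild-type rats 56 were lower with luteolin and 77 without, at medians of -0.01 and -0.08, against 48.8% and 52.9% of all genes below 0. These counts are after quantile normalization. With the local median taken off, 86 of the 110 were higher with luteolin in transgenic rats and 76 in wild-type rats. In that setting 70 were lower in transgenic rats with luteolin, and 70 without. At 1.5-fold or more after quantile normalization, 7 of the 110 were higher and 2 lower with luteolin in transgenic rats, against 0.487% and 1.02% of all genes. In wild-type rats 0 were higher and 1 lower, against 0.297% and 0.378%. In transgenic against wild-type rats, 4 were higher and 4 lower with luteolin, against 0.43% and 0.444% of all genes, and 1 higher and 6 lower without it, against 0.684% and 0.386%.

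Of the 12 genes with the largest ratios, 5 were lower in transgenic rats on both diets (Cpt1a, Crat, Hacl1, Slc22a5 and Plin2). Cpt1a, the carnitine palmitoyltransferase that controls entry, read 10.82 and 10.62 in transgenic rats with and without luteolin, and 11.62 and 11.48 in wild-type rats with and without luteolin. Crat (carnitine acetyltransferase) read 8.88 and 8.33 in transgenic rats with and without luteolin, and 9.63 and 9.20 in wild-type rats with and without luteolin. Both transgenic arrays lay below both wild-type arrays for each gene, and the ratios passed 1.5-fold on both diets under all 9 alternative settings. Slc22a5, the plasma membrane carnitine transporter, read 8.18 and 7.64 in transgenic rats with and without luteolin, and 8.31 and 8.39 in wild-type rats with and without luteolin, so it was low on the array of transgenic rats without luteolin alone. Hacl1, which shortens branched-chain fatty acids in peroxisomes, had transgenic over wild-type ratios of -0.79 with luteolin and -0.53 without.

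Several others of these lipid genes took different orders. Fgf21, a hormone that the liver secretes in fasting, read 11.49 and 10.30 in transgenic rats with and without luteolin, and 10.31 and 10.96 in wild-type rats with and without luteolin. Its luteolin ratio was therefore 1.19 in transgenic and -0.65 in wild-type rats. Hao2, a peroxisomal 2-hydroxyacid oxidase, ran the other way, with luteolin ratios of -0.71 in transgenic and 0.52 in wild-type rats. Angptl4, an inhibitor of lipoprotein lipase, was high on the array of transgenic rats with luteolin alone, with a luteolin ratio of 0.71 there and 0.23 in wild-type rats. Plin2, which coats lipid droplets, and the epoxide hydrolase Ephx2 had transgenic over wild-type ratios of -0.17 and 0.09 with luteolin, and of -0.86 and -0.78 without it. Acsm2, a relative of Acsm5, had luteolin ratios of 0.83 in transgenic and -0.08 in wild-type rats. Lpin1, a phosphatidate phosphatase that also acts as a coactivator of PPAR-alpha, was higher in transgenic than in wild-type rats, by 0.94 with luteolin and 1.56 without. Txnip, a regulator of glucose uptake and redox state, was also higher in transgenic rats, by 0.84 with luteolin and 0.45 without.

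**Figure D5:**
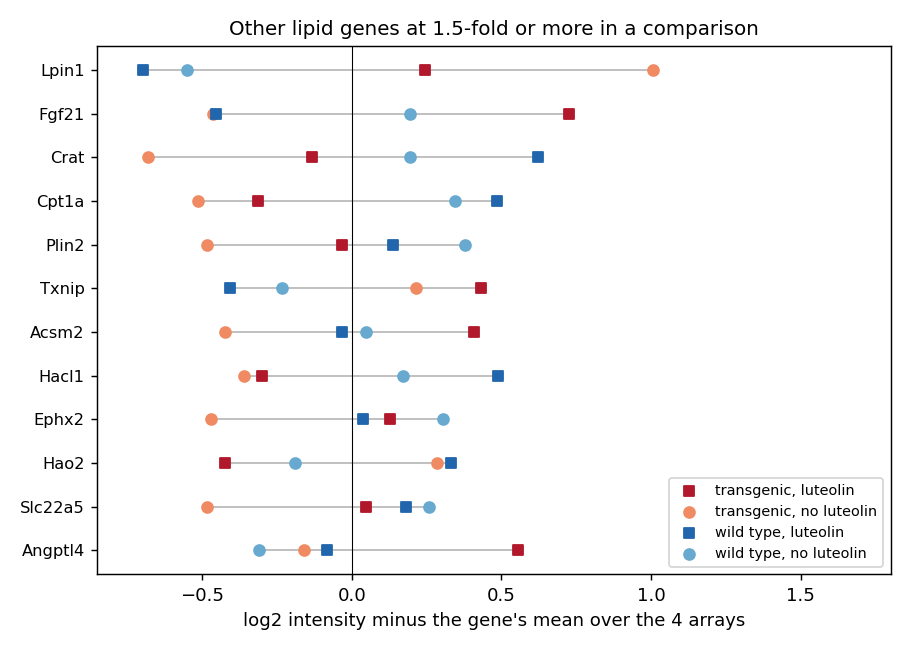
Log2 intensity of 12 further lipid genes on the 4 arrays (x axis), as the difference from each gene's mean; each point is 1 array, and these are the 12 largest of 15 listed genes at 1.5-fold or more in a comparison. Lpin1, Crat and Fgf21 spread most widely, and Cpt1a and Crat have both transgenic arrays left of both wild-type arrays.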

How the data were processed

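Per the labels' protocols, liver total RNA was amplified and carried 1 dye, Cy5, so the arrays were of a single colour. Per the file headers, the authors deposited for each probe a raw intensity, a background-subtracted intensity and a globally normalized intensity. The sources used here do not name the scanner or its software. The raw intensity was corrected with limma's normexp (offset 50) against each array's background constant (37.5 to 39.8), taken to log2 and quantile normalized over the 4 arrays (R 4.3.3, limma 3.58.1). A probe was above background where the authors gave a background-subtracted intensity, which held for 72.5% to 78.7% of 20174 probes per array. Of the quality flags, 2 were other than OK. Probes were named by RefSeq accession, Entrez identifier or symbol through a GRCr8 gene table, and the brightest of several probes stood for a gene, leaving 20080 genes.

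Comparisons of arrays are log2 ratios without a test, over genes above background on both arrays. The additive model used lmFit and eBayes with Benjamini-Hochberg adjustment and was tested on simulated data. The precision is limited by the number of arrays. The members, lists and thresholds were chosen with earlier results of these data known. Members at 1.5-fold in any comparison, Ppara, and up to 4 further members per compartment with the highest mean intensity are given by array. Genes of other lists are named at 1.5-fold in any comparison, at most 12 by size. Alternatives were median centring, the authors' normalized intensity with and without centring, an offset of 16, no filter or a stricter filter on dim probes, the mean over probes, and subtraction of local medians along the file rows. Motifs were searched in RefSeq promoters.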

Additional observations from a re-analysis of the deposited data

Results flagged for a closer look

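Among the further lipid genes, Fgf21 and Hao2 had luteolin ratios of opposite sign in the genotypes. For Fgf21 the ratio in transgenic rats less that in wild-type rats was 1.85 on the log2 scale. For Hao2 it was -1.23. With 1 array per group the difference was not tested. Both genes kept opposite signs under all 9 alternative settings, with Fgf21 between 0.91 and 1.26 in transgenic rats and between -0.67 and -0.35 in wild-type rats, and Hao2 between -1.04 and -0.70 in transgenic rats and between 0.42 and 0.81 in wild-type rats. No member of the oxidation set had ratios of opposite sign past the size fixed for this.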

How the results depend on the processing

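The group medians depended on how bright genes were scaled, and 112 of the medians under an alternative stayed within 0.1 (log2) of the reported value with its sign, while 25 moved further and 7 changed sign. These follow in the order all members, mitochondrial, peroxisomal, and microsomal or cytosolic. Median centring gave -0.0445, -0.0531, 0.0021 and -0.14 for luteolin in transgenic rats, and 0.44, 0.43, 0.42 and 0.68 for luteolin in wild-type rats. For transgenic against wild type it gave -0.47, -0.39, -0.62 and -0.89 with luteolin, and 0.0299, 0.0651, -0.16 and 0.041 without. On the authors' normalized intensity luteolin gave 0.014, 0.0097, 0.0663 and -0.10 in transgenic rats, and 0.44, 0.36, 0.34 and 0.60 in wild-type rats, and transgenic against wild type with luteolin gave -0.62, -0.51, -0.74 and -1.02. With these values centred, transgenic against wild type without luteolin was -0.24 for all members and -0.24 for microsomal or cytosolic genes, and with luteolin -0.32 for peroxisomal genes. After subtraction of the median of the nearest bright genes, a setting chosen after seeing the data, transgenic against wild type with luteolin was -0.42 for microsomal or cytosolic genes. By construction, median centring and the authors' scaling shift all bright genes together, whereas subtraction of local medians differs by row. Relative to the bright genes no median over all members changed sign.

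Counts of members at 1.5-fold moved too. Higher with luteolin in wild-type rats there were 9 under median centring, 8 on the authors' intensity and 2 after subtraction of the nearest bright genes, against 4. Lower in transgenic rats with luteolin there were 11, 16 and, with the authors' intensity centred, 6, against 3. Lower in transgenic rats without luteolin there were 0 under median centring, against 3. In the additive model limma called 333 genes and 1 member for luteolin, and 154 genes and 4 members for genotype, with the intensity trend. Among genes at 50 or more units above background it called 190 genes and 4 members for luteolin, and 125 genes and 6 members for genotype. The authors' intensity gave 79 and 26 genes with no member, and an offset of 16 gave 1 gene for luteolin. The cause of these moves in the model was not tested. No paired analysis was possible because each group had 1 array. Most genes on the array lay near background, where the offset pulls ratios toward 0.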
